A study of Mus musculus with 2 samples.

Results

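The small proline-rich protein (SPRR) genes were examined in mouse cardiomyocytes (MCMs) after knockdown of *Ppp2r5d*. The members were *Sprr1a*, *Sprr1b*, *Sprr2d*, *Sprr2h*, *Sprr2k*, *Sprr3*, *Sprr4* and *Crct1*, which are 8 of the 37000 gene names on the array and have 11 of its 56452 probes that are not controls. They were taken by gene name. *Sprr2h* and *Crct1* had been chosen because their measured differences between these same arrays were among the largest, and *Sprr1a* because it is a known stress gene of cardiomyocytes, so the values of *Sprr2h* and *Crct1* are given as a description and were not tested.

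The MCMs were bought from a supplier and used after repeated passage. They were transfected with a negative control siRNA (siRNA-NC) or with an siRNA against *Ppp2r5d* (siRNA-*Ppp2r5d*), which codes for a regulatory B subunit of protein phosphatase 2A. Both cultures were moved to medium without glucose at 48 h and harvested at 64 h after transfection, and their RNA was labelled with Cyanine 3 and hybridised to 1 one-colour array per condition. With 1 array per condition the spread between cultures was not measured, no test between the conditions was possible, and an effect of the siRNA cannot be told apart from any other difference between the 2 cultures or arrays.

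SPRR proteins are small, repeat-rich proteins with many proline and glutamine residues. In keratinocytes they are precursors of the cornified envelope, the protein shell beneath the membrane of the dying surface cell, into which transglutaminases cross-link them. Their genes lie side by side in the epidermal differentiation complex, together with the late cornified envelope (*Lce*) genes, the *S100* genes and *Crct1*. Outside the skin, *Sprr1a* is known as a gene that injured neurons and stressed cardiomyocytes switch on.

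Some of these genes are close copies of each other, so the stretches in which their probes shared bases are shown first. All probe positions are those of the mm9 build, on chromosome 3. The *Sprr2k* probe (chr3:92237308-92237367) and the *Sprr2b* probe (chr3:92121449-92121508) are printed whole, with the run of 28 bases that they share in capitals.
Sprr2k: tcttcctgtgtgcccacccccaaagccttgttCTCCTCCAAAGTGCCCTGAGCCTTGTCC
Sprr2b: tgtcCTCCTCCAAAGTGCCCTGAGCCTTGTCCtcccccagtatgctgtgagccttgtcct
Both probes read through 1 frame or more without a stop codon, and in the frame richest in proline 9 of 19 codons of the *Sprr2k* probe and 10 of 20 codons of the *Sprr2b* probe were proline codons. This was the longest run that any probe of a member shared with a probe of another *Sprr* gene.

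The probe on which the *Sprr2h* value rests (chr3:92191160-92191219) shared 15 bases with the *Sprr2f* probe (chr3:92170259-92170318). The stretches of 30 bases that hold this run are printed, with the run in capitals.
Sprr2h: ACATTTTTCAAATCTttctgacattttgcc
Sprr2f: tcagtatgACATTTTTCAAATCTctctgtc
The *Sprr2e* probe (chr3:92157288-92157347) and 1 of the *Sprr2a2* probes (chr3:92058417-92058476) also shared 15 bases, and the *Sprr2d* probe (chr3:92144721-92144780) shared 14 of these with *Sprr2e*.
Sprr2e: ttgtgttgtcattgtTGTTTCATTTCCTGA
Sprr2a2: ctgcTGTTTCATTTCCTGAaataaaaaagg
Sprr2d: tgtgttgtcagcatgGTTTCATTTCCTGAa
Runs of similar length were also shared with probes outside the family. The longest of those were 14 bases for the *Sprr2h* probe and for both *Crct1* probes, 15 for this *Sprr2a2* probe and 16 for the *Sprr2e* probe. The signals of the printed *Sprr* probes are compared below. The first bases of the 2 *Crct1* probes (chr3:92818192-92818251 and chr3:92819202-92819261, minus strand) are printed because both gave a higher signal after siRNA-*Ppp2r5d* and neither resembled a *Sprr* probe, their longest shared run being 9 bases.
Crct1, first probe: gatacaagtcaggggtgggacttcagatca
Crct1, second probe: aagaaggtgcagagcacgcttttgtgtttt

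A spot was taken as measured where the scanner software marked it as well above background. The lowest signals so marked were 14.9 with siRNA-NC and 13.5 with siRNA-*Ppp2r5d*, and the median of 308 negative control spots was 3.05 and 2.73. Fold changes compare log2 signals after each array's 75th percentile (a signal of 592 on siRNA-NC and 518 on siRNA-*Ppp2r5d*) was subtracted. The error given with a signal is the scanner software's own error of that spot, and it leaves out any spread between cultures. *Ppp2r5d* itself had a signal of 4701 ± 470 on siRNA-NC and 676 ± 67.7 on siRNA-*Ppp2r5d*, which was 6.09-fold lower (log2 fold change -2.61), the direction that the labels give.

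The label of the cells was set against marker genes. *Tnnt2*, *Nkx2-5*, *Gata4* and *Actc1* were measured on both arrays. *Actn2*, *Myl2*, *Myl7*, *Pln*, *Tbx5* and *Ckm*, all of them defining genes of cardiomyocytes, were not well above background on either. Of 24 cardiomyocyte markers 18 were measured on at least 1 array, 15 of them on both. The others, *Myh6*, *Mybpc3* and *Ryr2*, were measured on siRNA-*Ppp2r5d* only, with signals of 14.3, 14.2 and 19.3. The fibroblast markers *Col1a1*, *Col1a2*, *Fn1* and *Vim* were measured on both arrays, as were 10 of 13 markers on that list. *Thy1*, *Tcf21* and *Fap* of that list were not well above background on either array. Of 6 leukocyte markers 5 were measured on both arrays, and of 6 endothelium markers 2 were measured on at least 1 array. Of 19 keratinocyte and epithelium markers 10 were measured, among them *Krt14* and *Trp63*, whereas *Krt5*, *Krt1*, *Cdh1* and *Epcam* were not well above background on either array.

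Of the 8 members, 4 were measured, each on both arrays, and 2 of these were at least 2-fold higher after siRNA-*Ppp2r5d*. No member was at least 2-fold lower. Over all 21638 genes measured on an array, 219 were higher by 2-fold or more (1.01%) and 308 were lower by as much (1.42%). Because 2 of the members were chosen on this same contrast, nothing is read from the count of members against these shares. With the arrays scaled to their spike-in probes, the shares turned further towards lower genes, with 120 higher and 626 lower, so that 16.1% of these calls were higher against 41.6% as reported. The 2 members remained at least 2-fold higher under that scaling.

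*Sprr2h*, a member of the Sprr2 group of envelope precursors, had the largest difference of the family. On its first probe the signal was 18.1 ± 3.47 on siRNA-NC and 116 ± 11.9 on siRNA-*Ppp2r5d*. This was 7.28-fold higher (log2 fold change 2.86, scanner error 0.31), from a siRNA-NC signal only slightly above the lowest one marked as well above background. The second probe gave 4.11 on siRNA-NC, not well above background, and 23.9 ± 3.60 on siRNA-*Ppp2r5d*, at least 1.83-fold higher. The probes therefore had the same direction, and the first of them decided the value of the gene. Among genes as dim as this, measured on both arrays with a siRNA-NC signal under 50 on their brightest probe, 79 of 3041 were at least 2-fold higher (2.6%).

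*Crct1*, cysteine-rich C-terminal 1, is a neighbour of the SPRR genes and not an SPRR protein. Its first probe had a signal of 1358 ± 136 on siRNA-NC and 7206 ± 721 on siRNA-*Ppp2r5d*. This was 6.06-fold higher (log2 fold change 2.60, scanner error 0.20). The second probe gave 13.6 on siRNA-NC, not well above background, and 41.3 ± 4.96 on siRNA-*Ppp2r5d*, at least 3.16-fold higher. Both probes had the same direction, and the value of the gene rests on the first.

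*Sprr2k*, also of the Sprr2 group, had a signal of 196 ± 19.9 on siRNA-NC and 225 ± 22.6 on siRNA-*Ppp2r5d*. The log2 fold change was 0.39 (1.31-fold, scanner error 0.21), which is under the 2-fold limit. Scaled to the spike-in probes it was 0.17, smaller than the scanner error. The scanner software marked the local background of this spot as an outlier on both arrays. The *Sprr2b* probe, with which it shares its longest run, had 589 on siRNA-NC and 504 on siRNA-*Ppp2r5d*, a log2 fold change of -0.03. Whether transcripts of one gene bound to the probe of the other was not tested.

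*Sprr1a*, the member known as a stress gene of cardiomyocytes, had a signal of 23.7 ± 3.84 on siRNA-NC and 24.8 ± 3.74 on siRNA-*Ppp2r5d*. The log2 fold change was 0.25 (1.19-fold), smaller than its scanner error of 0.32. Scaled to the spike-in probes it was 0.04. A difference of this size was not detectable at this signal.

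The other 4 members were not well above background on either array. *Sprr1b*, a cornified envelope precursor like *Sprr1a*, had 2 probes with signals of 3.01 and 3.02 on siRNA-NC and 2.75 and 10.2 on siRNA-*Ppp2r5d*. *Sprr2d*, of the Sprr2 group, had 3.05 on siRNA-NC and 2.71 on siRNA-*Ppp2r5d*. *Sprr3*, which is known from the lining of the oesophagus and mouth, had 3.06 and 2.67. *Sprr4* had 3.01 and 2.73. Apart from the second value of *Sprr1b*, these lie at the level of the negative control spots, and no fold change is given for them.

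**Figure D1:**
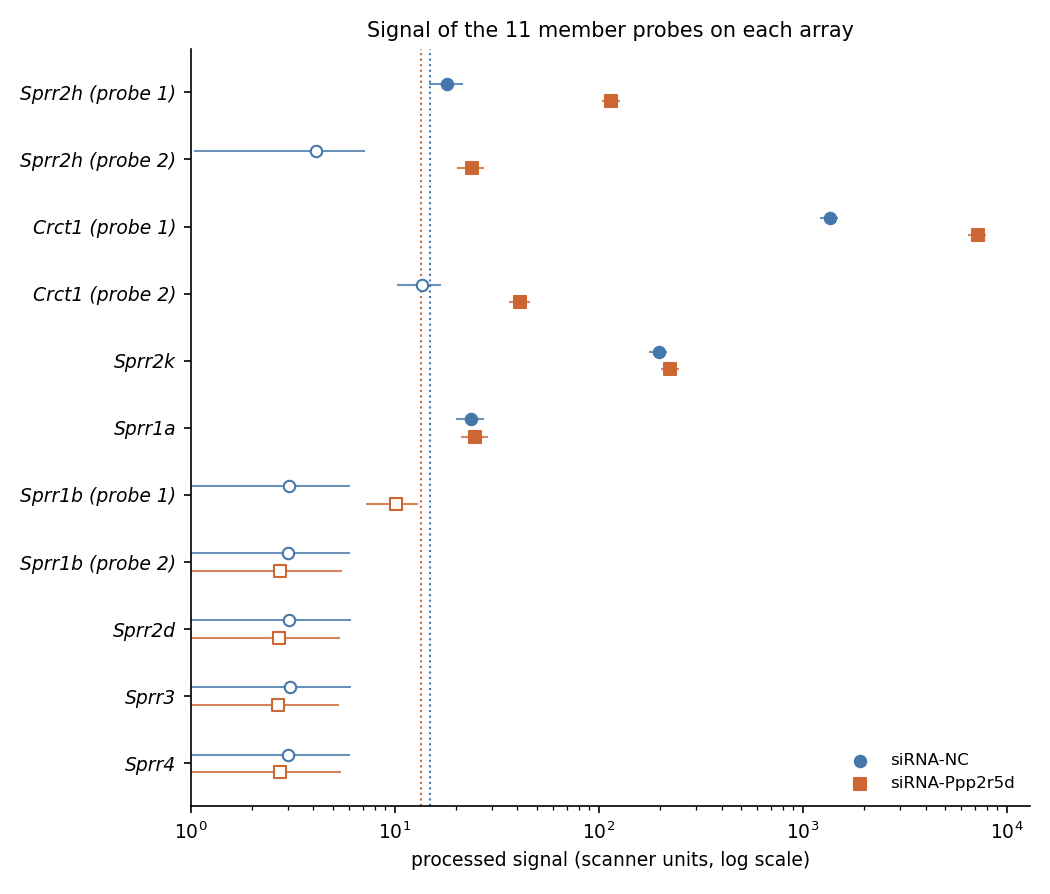
Processed signal (scanner units, log axis) of the 11 probes of the 8 members on the siRNA-NC array (circles) and the siRNA-Ppp2r5d array (squares). Filled symbols were well above background and open ones were not, horizontal bars are the scanner software's error of the spot (cut off at the left edge of the axis), dotted lines mark the lowest signal well above background on each array, and probe 1 is the brighter probe of a gene. The symbols of *Sprr2h* and *Crct1* are separated on both of their probes, the bars of *Sprr2k* and of *Sprr1a* overlap between the arrays, and the other genes are open on both.

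Over the 4 measured members the median log2 fold change was 1.49, against 0.02 over the 20311 genes measured on both arrays. The median falls between 2 large and 2 small values and describes none of the members. In the order of all 12754 official gene symbols measured on both arrays, from the highest log2 fold change down, *Sprr2h* was number 2, *Crct1* number 7, *Sprr2k* number 913 and *Sprr1a* number 1822. The log2 fold changes of *Sprr2h* and *Crct1* differed from each other by less than the scanner error of *Sprr2h*, and so did those of *Sprr2k* and *Sprr1a*.

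**Figure D2:**
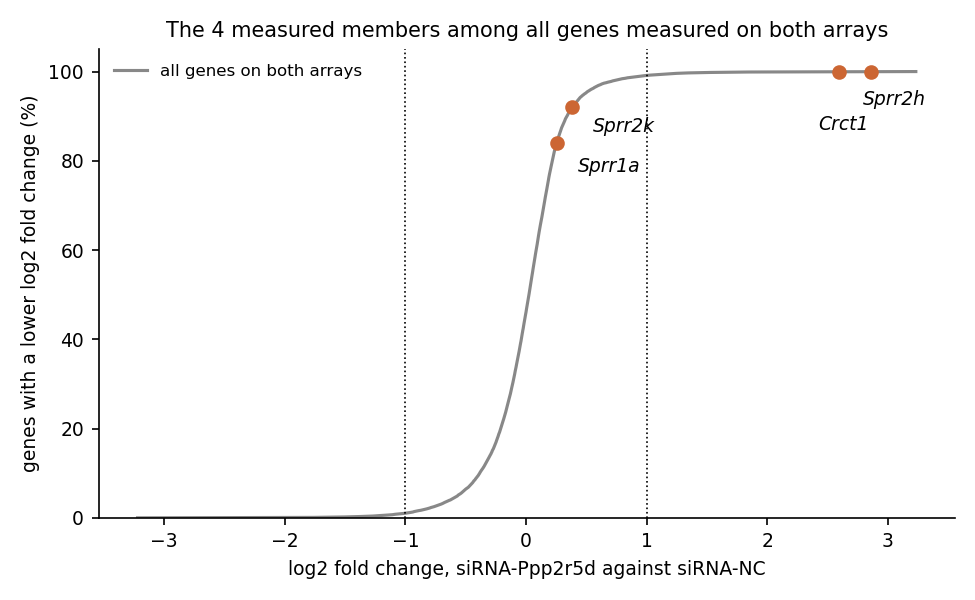
Share of genes with a lower log2 fold change (%) against log2 fold change of siRNA-Ppp2r5d over siRNA-NC, for the 20311 genes measured on both arrays (grey line), with the 4 measured members as points and dotted lines at 2-fold. *Sprr2h* and *Crct1* lie at the far right end of the line, whereas *Sprr2k* (92.0%) and *Sprr1a* (84.0%) lie above its steepest part, inside the 2-fold limits.

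Likeness to a member was measured as the nearness of the log2 fold change, over the 2 arrays only. Next to *Sprr2h* stood *Cxcl14*, a chemokine, at 3.23 above it, and *Penk*, the precursor of enkephalins, at 2.85 below it. Next to *Crct1* stood *Ces1a*, a carboxylesterase, at 2.64 and *Prl2c5*, a gene of the prolactin family, at 2.62 above it, and *Cnn1*, calponin of smooth muscle, at 2.41 below it. The neighbours of *Sprr1a*, *Nedd4*, *Zhx2*, *Higd2a* and *Zfp954*, were all at 0.25, where many genes lie close together.

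A further 8 genes on the array were named *Sprr*, with 10 probes. Of these, 5 were measured on at least 1 array and 2 were at least 2-fold higher, or 1 with spike-in scaling. The share higher by as much over all genes measured on an array was 1.01%. With the normexp background correction (offset 50), the log2 fold changes of *Sprr2e* and *Sprr2a2* were 0.69 and 0.70, both under the 2-fold limit. *Sprr2e*, printed above with the *Sprr2d* stretch that it resembles, had 11.7 on siRNA-NC, not well above background, and 45.2 ± 5.31 on siRNA-*Ppp2r5d*, at least 3.46-fold higher. The *Sprr2d* probe, with 14 of the same bases, had 3.05 and 2.71, at the level of the negative control spots. Binding of transcripts of *Sprr2d* or *Sprr2e* to the probe of the other was not tested.

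The 3 probes named *Sprr2a2* did not give the same result. The one printed above had 44.3 ± 5.36 on siRNA-NC and 190 ± 19.2 on siRNA-*Ppp2r5d*, a log2 fold change of 2.29. A second had 52550 on siRNA-NC and 49390 on siRNA-*Ppp2r5d*, a log2 fold change of 0.10, and shared 31 bases with a probe for another transcript. The third was not well above background on either array. The mean of the measured probes, 1.20, is the value of no probe, and with spike-in scaling it was 0.98, under the 2-fold limit.

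*Sprr2j-ps*, a pseudogene, had 34.5 on siRNA-NC and 53.2 on siRNA-*Ppp2r5d*, a log2 fold change of 0.82. *Sprr2g* had 23.4 and 23.6, a log2 fold change of 0.20 that turned to -0.02 with spike-in scaling. *Sprr2a1*, *Sprr2f* and *Sprr2i* were not well above background on either array. The *Sprr2f* signals were 3.04 and 2.69, and its probe shares 15 bases with the *Sprr2h* probe that gave 116 on siRNA-*Ppp2r5d*. Binding of transcripts of one of these genes to the probe of the other was not tested. Within the Sprr2 group, the probes past 2-fold were thus the first of *Sprr2h*, that of *Sprr2e* and 1 of *Sprr2a2*, with signals below 200 on siRNA-*Ppp2r5d*.

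**Figure D3:**
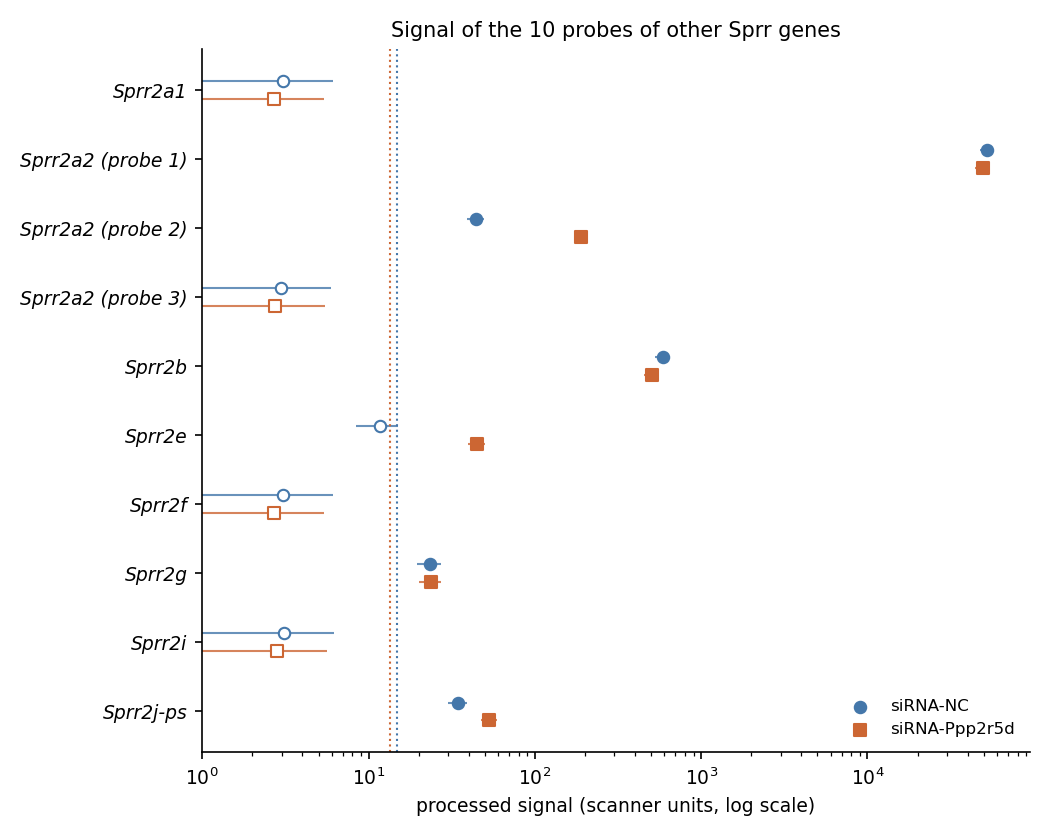
Processed signal (scanner units, log axis) of the 10 probes of the other 8 Sprr genes on the siRNA-NC array (circles) and the siRNA-Ppp2r5d array (squares), with symbols, bars and dotted lines as in the plot of the member probes and the probes of Sprr2a2 numbered from the brightest. *Sprr2e*, the second *Sprr2a2* probe and, by less, *Sprr2j-ps* are separated, the brightest *Sprr2a2* probe is not, and 4 probes are open on both arrays.

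The outermost member probes, those of *Sprr2d* and *Crct1*, lie 674.54 kb apart (mm9, chr3:92144721-92819261). Another 30 gene symbols have probes between them, 18 of which were not well above background on either array. Of the 12 that were measured, 3 were at least 2-fold higher and 1 was lower by as much, against 1.01% and 1.42% over all genes. The higher ones include *Sprr2e*, already counted among the other *Sprr* genes. The 10 measured on both arrays had log2 fold changes of 0.0019 to 1.70 with a median of 0.52, all of them above 0, but cyclic loess left 9 above 0 and spike-in scaling 6. Probes past 2-fold did not lie next to each other in a single block. Within 50 kb of *Sprr2h* the measured genes were *Sprr2e* at a bound of 1.79, *Sprr2j-ps* at 0.82, *Sprr2k* at 0.39 and *Sprr2g* at 0.20. *Sprr2d*, *Sprr2f*, *Sprr2i* and *Sprr1b* lay in the same stretch and were not well above background on either array.

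Many of the genes between *Sprr4* and *Crct1* are late cornified envelope genes. *Lce1l* had 21.0 on siRNA-NC and 59.9 on siRNA-*Ppp2r5d*, a log2 fold change of 1.70, and *Lce1i* had 40.9 and 85.2, a log2 fold change of 1.25. *Lce1a2* had 763 and 669, a log2 fold change of 0.0019 that turned negative with spike-in scaling. In the opposite direction, *Lce3e* had 55.0 on siRNA-NC and 2.76 on siRNA-*Ppp2r5d*, not well above background, at least 3.57-fold lower. The nearest measured gene symbols beside *Crct1* were *Lce3e* on one side and *Lce1m*, which was higher, on the other. *Lce3f* lies between *Lce3e* and *Crct1* and was not well above background on either array.

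**Figure D4:**
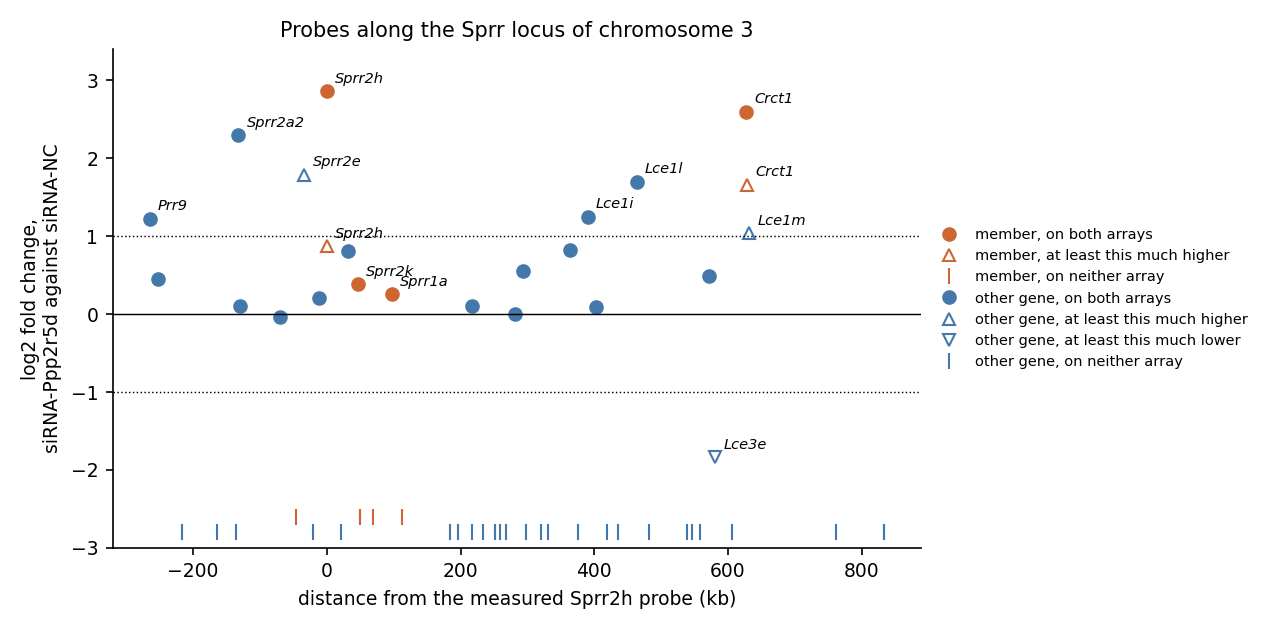
Log2 fold change of siRNA-Ppp2r5d over siRNA-NC for each probe of the Sprr locus against its distance (kb) from the Sprr2h probe that was measured on both arrays, members in orange and other genes in blue. Filled circles were measured on both arrays, open triangles are bounds, ticks at the bottom are probes on neither array, dotted lines mark 2-fold, and genes outside the outermost member probes are drawn too. *Sprr2h* and *Crct1* stand 627 kb apart with lower values between them.

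The list of the epidermal differentiation complex, from which *Crct1* and every *Sprr* gene were left out, held 48 genes that are on the array, of which 26 were measured. Of these, 5 were at least 2-fold higher and 1, *Lce3e*, was lower. The shares over all genes measured on an array were 1.01% and 1.42%. Among genes measured on both arrays with a siRNA-NC signal under 50 on their brightest probe, 2.6% were higher. *Lce1i*, *Lce1l* and *Lce3e* are also in the count between the outermost member probes. The lists were chosen with earlier results of these data known, so nothing is read from these counts. Besides *Lce1i* and *Lce1l*, the higher genes were *S100a8*, a calcium-binding alarmin of neutrophils and inflamed skin (105.5 to 275, log2 fold change 1.57), *Prr9*, a proline-rich gene (445 to 910, log2 fold change 1.22), and *Lce1m* (9.31, not well above background, to 26.9, at least 2.06-fold, or under 2-fold with spike-in scaling). The median over the 23 genes on both arrays was 0.22, and -0.0027 with spike-in scaling, against 0.02 and -0.19 over all genes. The brightest genes of the complex differed little, with log2 fold changes of 0.12 for *S100a4*, 0.25 for *S100a6* and -0.02 for *S100a11*, and *S100a4* and *S100a11* changed sign with the scaling.

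Proteins that build the envelope together with SPRR proteins, and the enzymes that cross-link them, formed a list of 30 genes on the array. Of these 15 were measured, 0 were at least 2-fold higher and 2 were at least 2-fold lower, with a median log2 fold change of -0.0035. The shares over all genes measured on an array were 1.01% higher and 1.42% lower. *Cdsn*, corneodesmosin, which holds cornified cells together, had 2492 on siRNA-NC and 650 on siRNA-*Ppp2r5d*, a log2 fold change of -1.75. *Ppl*, periplakin, an early scaffold of the envelope, had 738 and 277, a log2 fold change of -1.22. Both differed in the direction opposite to *Sprr2h* and *Crct1*. The brightest genes of this list, *Anxa1*, *Cstb* and *Pkp1*, were at -0.13, 0.35 and 0.11, of which that of *Pkp1* turned to -0.11 with spike-in scaling.

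Transcription factors known to act on SPRR promoters were measured for 23 of 27 genes, and none was at least 2-fold higher or lower. The brightest were *Junb* and *Jund*, both of the AP-1 family, at 0.09 and -0.11, and *Klf4*, a zinc finger factor of the skin barrier, at -0.03. Under spike-in scaling 1 of the 23 was at least 2-fold lower. Genes that are switched on with *Sprr1a* in injured or stressed cells were measured for 19 of 24, and 0 were at least 2-fold higher or lower. The brightest of them were *Mt2* and *Mt1*, metallothioneins, at 0.02 and -0.04, and *Timp1*, an inhibitor of matrix proteases, at -0.16. The 19 genes ranged from -0.29 to 0.68, and the value of *Sprr1a*, 0.25, lay inside that range. For both lists, the shares over all genes measured on an array were 1.01% at least 2-fold higher and 1.42% lower.

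Markers of other cells were set beside the members. Summed over the 19 keratinocyte and epithelium markers the brightest probes gave 24652 on siRNA-NC and 21913 on siRNA-*Ppp2r5d*, and 1 marker was at least 2-fold higher. This was *Krt8*, a keratin of simple epithelia that cardiomyocytes also make, with 55.3 and 211 on its brightest probe and a log2 fold change of 2.16 over 2 probes. *Krt14*, a keratin of basal keratinocytes, had 5215 and 3155, a log2 fold change of -0.53. Summed in the same way, the 24 cardiomyocyte markers gave 17988 on siRNA-NC and 17120 on siRNA-*Ppp2r5d*. Among them only *Csrp3*, a muscle LIM protein that senses stretch, was at least 2-fold higher, with 37.7 and 126 and a log2 fold change of 1.93. Fibroblast markers summed to 447911 and 428841, and *Lum*, lumican, alone was at least 2-fold higher at 1.08, or 0.86 with spike-in scaling. Over all genes measured on an array, 1.01% were at least 2-fold higher. The part of other cells in the member values was not tested. In such RNA from whole cultures, more cells of a type and more RNA per cell cannot be told apart.

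Promoters were looked up for the members in RefSeq (GRCm38.p6), from 250 bases before to 50 bases after the start of the gene. Of the 8 members 7 had one, and the one without was *Crct1*. The last 200 bases before the start are printed for the measured *Sprr* members, in which *Sprr2h* differed between the arrays and *Sprr2k* and *Sprr1a* did not reach 2-fold. Capitals mark TATAAA, the TATA box, and TGANTCA, the site of AP-1.
Sprr2h, chr3:92385485-92385684, plus strand: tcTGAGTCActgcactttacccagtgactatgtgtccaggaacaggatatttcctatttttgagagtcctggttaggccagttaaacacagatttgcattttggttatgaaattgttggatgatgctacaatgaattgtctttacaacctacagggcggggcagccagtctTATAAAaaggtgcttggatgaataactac
Sprr2k, chr3:92432382-92432581, plus strand: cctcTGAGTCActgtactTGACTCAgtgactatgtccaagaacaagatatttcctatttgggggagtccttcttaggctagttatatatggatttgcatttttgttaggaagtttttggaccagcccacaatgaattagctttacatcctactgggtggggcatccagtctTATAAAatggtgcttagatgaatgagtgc
Sprr1a, chr3:92485882-92486081, minus strand: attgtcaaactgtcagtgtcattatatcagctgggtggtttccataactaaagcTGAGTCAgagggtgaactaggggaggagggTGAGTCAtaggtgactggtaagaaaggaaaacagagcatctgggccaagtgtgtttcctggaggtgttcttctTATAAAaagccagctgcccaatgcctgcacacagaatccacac

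In a global alignment the *Sprr2h* and *Sprr2k* stretches had 163 identical bases of 200 (81.5%), and *Sprr2h* and *Sprr1a* had 77 (38.5%). The TATAAA of *Sprr2h* and of *Sprr2k* began 29 bases before the start, and that of *Sprr1a* 43 bases before it. *Sprr2h* held TGANTCA once, and *Sprr2k* and *Sprr1a* held it at 2 places each. The pair with the most similar promoters among these 3 genes had log2 fold changes of 2.86 and 0.39. A relation between promoter sequence and these values was not tested.

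Of the 7 member promoters, 6 held TATAAA on either strand and 5 held TGANTCA, against 13.6% and 7.81% of 32851 promoters of the same length. For the other motifs searched on both strands, AGGAAG, the core of ETS sites, was in 3 of 7 against 35.4% of all, CACCC, a site of KLF factors, in 4 of 7 against 57.5%, and TTCNNNGAA, a site of STAT factors, in 0 of 7 against 8.30%. In *Sprr1a* 1 TGANTCA overlapped a CACCC match. Since these genes arose by duplication, their promoters are not independent of each other, and a match is only a match of letters.

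**Figure D5:**
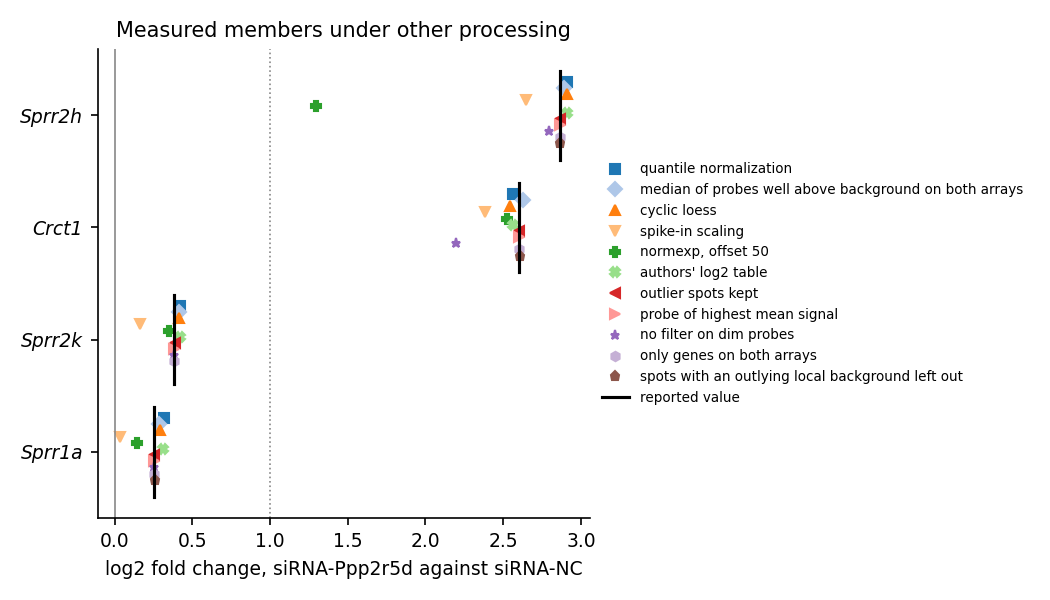
Log2 fold change of siRNA-Ppp2r5d over siRNA-NC for the 4 measured members (rows) as reported (black bars) and under 11 other ways of processing (symbols), with a dotted line at 2-fold. *Sprr2h* and *Crct1* lie right of 2-fold and *Sprr2k* and *Sprr1a* left of it under all of the settings drawn, and the widest move is that of *Sprr2h* to 1.30 with the normexp background correction. *Sprr2k* has 10 symbols, because leaving out its marked spot leaves no value.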

How the data were processed

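Per the file headers and the study's methods, the authors scanned 2 Agilent SurePrint G3 Mouse v2 arrays and deposited the intensity of each spot from Feature Extraction 10.7.1.1, background-subtracted by the scanner software and not yet made comparable between arrays, with marks of 0 or 1 for detection and outliers. The authors deposited log2 values too, used here only as an alternative. The 2 columns of that table held nearly the same set of values, the study's methods name GeneSpring for the basic analysis, and the normalization is not given in the sources used here.

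From the intensities, log2 signals were taken and each array's 75th percentile over probes that are not controls was subtracted. Spots marked as outliers were left out (226 on siRNA-NC and 188 on siRNA-*Ppp2r5d* of 59305), and 0 were saturated. Spots of 1 probe were averaged, and a gene is the mean of its measured probes, those marked well above background on both arrays. For a gene measured on 1 array only, its fold change is a bound against the lowest signal well above background. Spots of a probe repeated at least 5 times had a median SD of 0.04 in log2 fold change (300 probes, mostly bright), and of 0.21 over the 5 of them that were measured on both arrays with a siRNA-NC signal under 50. The number of arrays limits the precision.

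The members and lists were chosen with earlier results of these data known. Named genes were the members, the other *Sprr* genes, *Ppp2r5d*, in each list the genes past 2-fold and up to 3 of the brightest on siRNA-NC, and the neighbours in log2 fold change, of which some are not reported here. Other genes were named after their values were seen, to describe markers and the locus. On simulated data made from the siRNA-NC array, with 100 genes raised and 100 lowered 3-fold among 21105, 100% and 92% were recovered. The simulated array had the same small noise at every brightness and no spread between cultures. Its recovery therefore checks the calculation only and does not bear on the precision of the dim member values. Python 3.11.15 with pandas 2.3.3 and Biopython 1.88, and R 4.3.3 with limma 3.58.1 for the alternatives, were used.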

Additional observations from a re-analysis of the deposited data

How the results depend on the processing

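The 2 members at least 2-fold higher, *Sprr2h* and *Crct1*, and the count of 0 members lower kept to their side under 13 alternatives, except that with no filter on dim probes 3 members were higher. No paired analysis was possible because each condition had 1 array, and for the same reason no array could be left out. The median log2 fold change of the measured members, 1.49, was 1.27 with spike-in scaling, 0.82 with normexp and an offset of 50, 0.32 with no filter on dim probes, which brings in the members without a signal, and 2.61 when spots with an outlying local background were left out, an alternative chosen after seeing the data that removes *Sprr2k*. The log2 fold change of *Ppp2r5d*, -2.61, was -2.83 with spike-in scaling and -2.49 with normexp. The 5 genes at least 2-fold higher on the list of the epidermal differentiation complex, which leaves out *Crct1* and every *Sprr* gene, became 2 with normexp and 0 at a 4-fold threshold. The median of all genes turned from 0.02 to -0.19 with spike-in scaling, so every value there is lower by the same amount. The counts of all genes, 219 higher and 308 lower, were 120 and 626 with spike-in scaling, 62 and 44 with normexp, 937 and 1106 without the filter, 819 and 1165 at 1.5-fold and 20 and 21 at 4-fold. The log2 fold change of *Sprr2h*, whose siRNA-NC signal is near background, ranged from 1.30 to 2.91 and that of *Crct1* from 2.20 to 2.63. The offset of normexp draws dim signals together by construction. No fold change could be given for the 4 members that were not well above background on either array.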
